A study of Mus musculus with 6 samples.

Results

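The genes described here are 10 genes of protein folding in the endoplasmic reticulum (ER), namely 6 genes of the disulfide isomerase family (Txndc12, Txndc5, P4hb, Pdia3, Pdia4 and Pdia6) and 4 genes of the FK506-binding proteins or FKBPs (Fkbp7, Fkbp9, Fkbp10 and Fkbp14). They were picked by symbol from the 55416 genes of the deposited table, with the difference between the 2 groups of libraries already known, so that difference is given for them as a description and without a test. RNA was sequenced from primary mouse chondrocytes, the cells that build cartilage, after transfection with a scrambled control siRNA (siNC, 3 libraries) or with an siRNA against Pkm2 (siPkm2, 3 libraries). The labels name knee joints of neonatal mice as the source and list siNC as wild type, while the methods describe articular chondrocytes of young adult mice, unpassaged and grown in serum. The genotype label of siPkm2 replicates 2 and 3 gives other PKM numbers, but the titles of all 3 name siPKM2 and were followed. Nothing in the labels ties a replicate to an animal, so the spread between libraries may be partly technical, and p-values measure only that spread.

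Proteins bound for the cell surface or the matrix fold in the ER, where disulfide isomerases make, break and shuffle the bonds between cysteines with a thioredoxin-like domain. FKBPs are prolyl isomerases, which turn the peptide bond before a proline, a slow step in the folding of the proline-rich collagens. Chondrocytes secrete large amounts of collagen and proteoglycan and carry much of this machinery. Per the annotation columns of the deposited table, all 10 genes are assigned to the ER lumen, a term carried by 90 tested genes. Protein disulfide isomerase activity is assigned to 4 of them (Pdia3, P4hb, Pdia6 and Pdia4), not to Txndc12 or Txndc5, and to 12 tested genes. Protein folding is assigned to 3 of them (Pdia3, P4hb and Fkbp9) and to 101 tested genes. The 6 disulfide isomerase genes carry the thioredoxin domain, as do 30 tested genes in all, and the 4 FKBP genes carry the FKBP-type isomerase domain, as do 13.

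Each library held between 22317065 and 25691096 estimated counts. Pkm was at 1654, 2209 and 1293 TPM (a level scaled for gene length and library depth) in siNC replicates 1, 2 and 3 and at 245, 428 and 231 TPM in siPkm2, and these values do not separate PKM1 from PKM2. Replicate 2 of both groups stood apart from the others. The summed level of 10 of 10 chondrocyte markers was 3881 TPM in siNC and 5245 TPM in siPkm2 replicate 2, against 15100 to 18250 TPM in the other 4 libraries. The summed level of 8 interferon-stimulated genes was 58.8, 2806 and 93.1 TPM in siNC replicates 1, 2 and 3 and 2116, 5440 and 1497 TPM in siPkm2. In the ranges over the libraries of siNC and siPkm2, 5 macrophage markers summed to 9.16-99.1 and 12.1-58.6 TPM, 5 endothelial markers to 0.43-0.76 and 0.39-1.05 TPM, and 5 muscle markers to 3.94-5.91 and 4.52-7.12 TPM. The 5 osteoblast markers summed to 24.1-289 and 15.2-106 TPM, and the 5 fibroblast and synovial markers to 840-1770 and 458-1050 TPM. Single genes can rule these sums, and markers of a list differed in direction. Col1a1 had means of 1084 TPM in siNC and 698.6 TPM in siPkm2, while Prg4 had 12.56 and 57.15 TPM. Des had means of 1.13 and 4.57 TPM, and Acta1 3.72 and 1.07 TPM. Of the macrophage sum in siNC replicate 2, Cd68 made 92.8 TPM. No marker was at 0 in all libraries, and all 5 endothelial markers were below 1 TPM throughout.

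Txndc12, which encodes a small single-domain member of the thioredoxin family, showed the largest difference of the 10 and is shown with its sequence for that reason. The gene (ENSMUSG00000028567) lies on the plus strand of chromosome 4 at chr4:108834601-108862127 in GENCODE M21 on GRCm38. The supplement gives 3 siRNAs against Pkm2 and names the third as the one chosen for the study, without tying a number to the sequenced cultures. Its guide strand is printed here with bases 2 to 8, the seed, in capitals. It is followed by its full site in Pkm and by the matches to the seed in the 10 genes, where capitals mark the 7 bases that pair with the seed. For each gene, the coding transcript with the longest 3′ untranslated region was searched.
siPkm2 #3 guide: uGUUUCUCcagacagcaug
Pkm, exon 8, coding: catgctgtctgGAGAAACa
Txndc12, exon 7, coding: acgccttcagaGAGAAACa
Txndc12, exon 7, 3′ untranslated: tgttgctgttaGAGAAACt
Pdia3, exon 7, coding: tctaactactgGAGAAACa
The Pkm site spans chr9:59672010-59672028, the Txndc12 sites chr4:108861409-108861427 and chr4:108861975-108861993, and the Pdia3 site chr2:121432380-121432398, each on the plus strand of GRCm38. Over the 19 bases of each window, 10 and 9 bases of the Txndc12 sites and 12 bases of the Pdia3 site equal those of the Pkm site. Each count includes the 7 seed bases, by which the windows were picked. A seed match in the 3′ untranslated region was present in 1 of the 10 genes, Txndc12, and in 16.4% of the 13202 tested genes with such a region of at least 50 bases. Fkbp7 held no match anywhere in its transcript of 860 bases, of which 147 are 3′ untranslated. The seed of the siPkm2 #2 guide had 2 matches in the 3′ untranslated region of Txndc12, of 681 bases, and 1 in that of Pdia3. It had at least 1 match in 15.9% of the same tested genes, and the share with 2 or more was not taken. In these regions of the 10 genes, neither strand of siPkm2 #1 had a seed match. The sense strand of #3 had 1 in each of Pdia4, Pdia6 and Fkbp14, and that of #2 had 1 in each of Pdia3 and Fkbp10. No 3′ untranslated region of the 10 genes matched the seed of either siNC strand. A match is a stretch of letters and was not tested as a binding site.

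Txndc12 was at 145, 149 and 127 TPM in siNC replicates 1, 2 and 3 and at 32.0, 32.3 and 28.0 TPM in siPkm2 replicates 1, 2 and 3. All siPkm2 libraries lay below all siNC libraries, and the spread inside each group was small beside the gap, with 140 ± 11.9 TPM (SD, n = 3) against 30.8 ± 2.37 TPM (SD, n = 3). In CPM (counts scaled to library size with TMM factors), siPkm2 held 21.2%, 21.9% and 22.6% of the siNC value in replicate pairs 1, 2 and 3. For edgeR values here and below, the fit held no term for replicate pairs unless stated. Their standard error (SE) was derived from the log2 fold change and the F value of the test. The edgeR log2 fold change of siPkm2 over siNC was -2.19 with an SE of 0.15, a level 4.58-fold lower. These values rest on 1994 to 2802 counts per siNC library and 432 to 564 per siPkm2 library. Counted from the lowest log2 fold change, Txndc12 ranked 67 among the 15269 genes tested and 21 among the 13559 genes with at least 10 counts in every library. Kti12, a gene that lies inside an intron of Txndc12 on the same strand, was at 13.6 ± 2.82 TPM (SD, n = 3) in siNC and 19.1 ± 2.86 TPM (SD, n = 3) in siPkm2. In these bulk libraries, less RNA per cell and fewer cells that carry it cannot be told apart.

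Fkbp7, which encodes an ER prolyl isomerase with calcium-binding EF-hands, was the other gene with a large difference. The gene (ENSMUSG00000002732) lies on the minus strand at chr2:76663044-76673116. It was at 110 (109.9), 109 and 126 TPM in siNC replicates 1, 2 and 3 and at 33.5, 42.8 and 39.3 TPM in siPkm2. Again the groups did not overlap, at 115 ± 9.26 TPM (SD, n = 3) and 38.5 ± 4.73 TPM (SD, n = 3). Its log2 fold change was -1.56 ± 0.15 (SE), or 2.95-fold lower, from 306 to 1214 counts per library. Pair 2 held 40.3% of the siNC value in CPM, against 29.4% in pair 1 and 32.8% in pair 3. Txndc12 and Fkbp7 differed about as much when the 2 libraries of replicate 2 were left out, at log2 fold changes of -2.21 and -1.70.

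**Figure D1:**
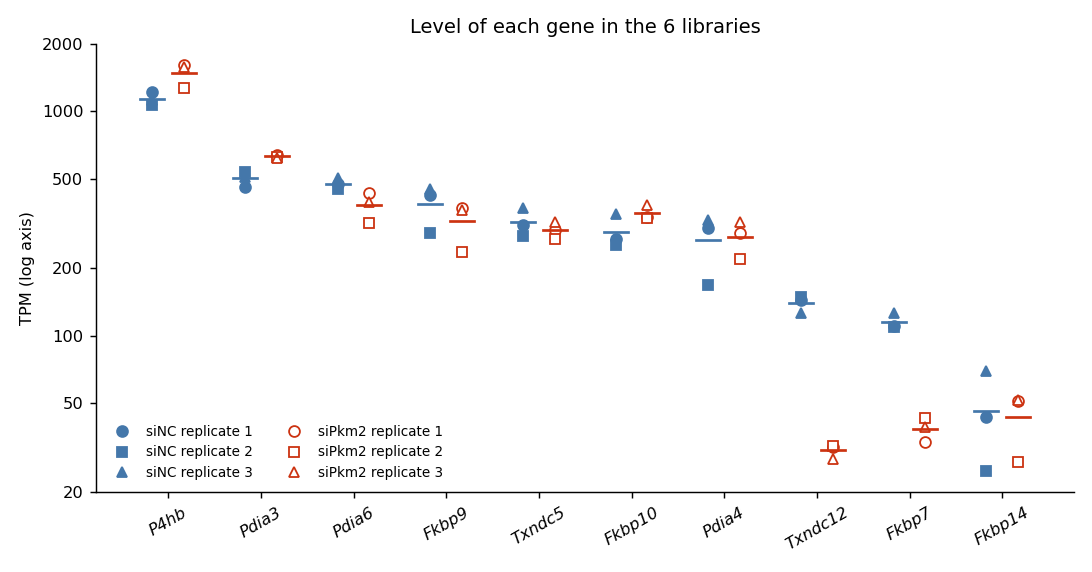
TPM on a log axis for each of the 10 genes, ordered by the mean in siNC, with filled blue symbols for siNC, open red symbols for siPkm2, a symbol shape per replicate number and a bar at each group mean (n = 3). Txndc12 and Fkbp7 are far apart by group, while Fkbp9, Pdia4 and Fkbp14 are lowest in replicate 2 (squares) of both groups. Txndc5, P4hb, Pdia6 and Fkbp10 are also lowest in replicate 2 of both groups, by less.

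The other 5 disulfide isomerase genes differed by less than 1.5-fold, and in both directions. P4hb encodes protein disulfide isomerase itself, which is also the beta subunit of the collagen prolyl 4-hydroxylase. It was at 1220, 1073 and 1122 TPM in siNC replicates 1, 2 and 3 and at 1608, 1276 and 1584 TPM in siPkm2, so all siPkm2 libraries were above all siNC libraries. Its log2 fold change was 0.45 ± 0.22 (SE), a level 1.37-fold higher. Pdia3 encodes the isomerase that works with calnexin and calreticulin on glycoproteins and in the loading of MHC class I. Its TPM was 460 (459.9), 537 and 513 in siNC and 642, 630 (629.6) and 620 (620.4) in siPkm2, and here too the groups did not overlap. The log2 fold change of Pdia3 was 0.37 ± 0.17 (SE), 1.29-fold higher. Its coding sequence holds a seed match printed above, as does that of Txndc12.

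Pdia6 encodes an isomerase with a part in shutting off the ER stress sensors. Its TPM was 475, 452 and 503 in siNC and 435, 319.5 and 396 in siPkm2, and its log2 fold change was -0.28 ± 0.21 (SE). In TPM the groups did not overlap, whereas in CPM, at 513 to 623 in siNC and 377 to 560 (559.8) in siPkm2, they did. Txndc5, which encodes an isomerase with 3 thioredoxin domains, was at 320.4 ± 46.5 TPM (SD, n = 3) and 296 ± 24.7 TPM (SD, n = 3), for a log2 fold change of -0.07 ± 0.20 (SE). Pdia4, which encodes a larger isomerase of the secretory pathway, was at 301, 168 and 329 TPM in siNC and 287, 220 (219.8) and 321 TPM in siPkm2. Its log2 fold change was 0.08 ± 0.33 (SE), and the low value in both groups was that of replicate 2.

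Among the other 3 FKBP genes, Fkbp10 was higher and Fkbp9 and Fkbp14 overlapped widely. Fkbp10 encodes a chaperone of type I procollagen whose loss causes brittle bones in humans. It was at 271, 254 and 348 TPM in siNC and 339, 335 and 384 TPM in siPkm2, so that siNC replicate 3 lay inside the siPkm2 range, and its log2 fold change was 0.34 ± 0.19 (SE). Fkbp9, which encodes a related protein with several isomerase domains, was at 423, 287 and 452 TPM in siNC and 371, 237 and 362 TPM in siPkm2. Although the groups overlapped, Fkbp9 was lower in siPkm2 in every pair, at 86.7%, 86.4% and 84.4% of siNC in CPM. Its log2 fold change was -0.22 ± 0.30 (SE), and the SE was 0.09 when the fit held a term for each replicate pair. Fkbp14, which encodes a small isomerase whose loss causes a connective tissue disorder in humans, was at 43.5, 25.02 and 69.9 TPM in siNC and 51.3, 27.3 and 51.8 TPM in siPkm2. Its pair differences had both signs, at log2 values of 0.25, 0.14 and -0.29 in pairs 1, 2 and 3, and its log2 fold change was -0.01 ± 0.43 (SE).

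**Figure D2:**
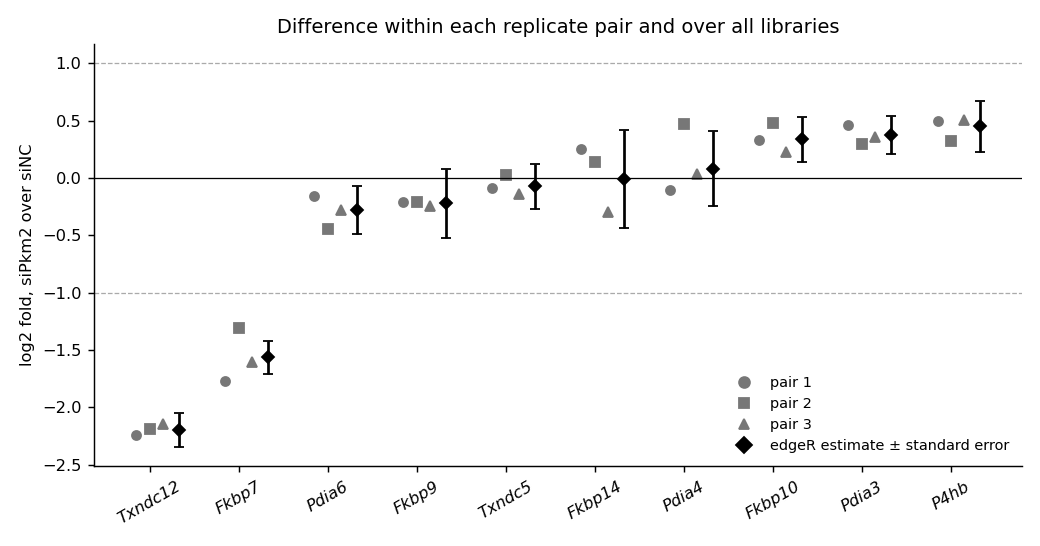
Log2 difference of siPkm2 over siNC for each of the 10 genes. Grey symbols are replicate pairs 1, 2 and 3 in log2 CPM. Black diamonds are the edgeR estimate over all 6 libraries, fitted without a term for replicate pairs. Their bars are the SE derived from the F value of the test, and dashed lines mark a 2-fold difference. Txndc12 and Fkbp7 lie below the lower dashed line in all pairs, and the other 8 genes lie between -0.44 and 0.51.

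Summed over the 10 genes, the level overlapped between the groups. The 10 genes together made 3760, 3333 and 3960 TPM in siNC replicates 1, 2 and 3 and 4096, 3389 and 4107 TPM in siPkm2. P4hb alone was 28.3% to 32.5% of that sum in siNC and 37.6% to 39.3% in siPkm2. Txndc12 was 3.20% to 4.48% of it in siNC and 0.68% to 0.95% in siPkm2. In the order of mean TPM, P4hb was first and Pdia3 second in both groups. In siNC, P4hb lay above the range of Pdia3, and the ranges of Pdia3 and Pdia6 overlapped. Below these, Fkbp9, Txndc5, Fkbp10 and Pdia4 followed in siNC with each overlapping the next, and Txndc12, Fkbp7 and Fkbp14 came last, each apart from its neighbour. In siPkm2 the last 3 were Fkbp14, Fkbp7 and Txndc12, and the ranges of Fkbp14 and Fkbp7 overlapped.

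Of the 10 genes, all of which passed the filter on low counts, 6 had a log2 fold change below 0 and 4 above. The median was -0.04, and over all genes tested it was -0.02, while the median size without sign was 0.31 and 0.32. In all 3 replicate pairs, 4 genes were lower (Txndc12, Fkbp7, Pdia6 and Fkbp9), where 30.6% of all tested genes were, and 3 were higher (P4hb, Pdia3 and Fkbp10), where 30.5% were. In CPM, 2 genes had siPkm2 libraries wholly below siNC (12.3% of all tested genes) and 2 wholly above (12% of all tested genes). A fold over 2 with an adjusted p under 0.05, the study's rule for a changed gene, was met by none of the 10 in edgeR's quasi-likelihood test without a block. It was met by 0% of all tested genes in either direction, although 17.6% of them passed 0.05 before adjustment and 430 genes met it in DESeq2's Wald test. When the fit held a term for each replicate pair (the block), Txndc12 and Fkbp7 met it as lower (3.18% of all tested genes) and none met it as higher (2.65%). The SEs of the 10 log2 fold changes were smaller with the block, from 0.08 for Txndc12 to 0.13 for Pdia4. They were 0.11 for P4hb, 0.09 for Pdia3, 0.09 for Fkbp9 and 0.13 for Fkbp14. At any fold with the block, Txndc12 and Fkbp7 passed as lower and P4hb and Pdia3 as higher, as did 10.8% and 12.3% of all tested genes. Because the genes were chosen with this comparison known, nothing is read from these counts.

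Each of the 10 genes was also compared between replicate 2 and the other replicates. The difference was taken as log2 CPM of replicate 2 minus the mean of replicates 1 and 3, averaged over the groups. It was -1.12 for Fkbp14, -0.79 for Pdia4 and -0.72 for Fkbp9, and these 3 genes passed 0.5 in size downward, as did 16.2% of all tested genes. No gene of the 10 passed 0.5 upward, as 21.1% of tested genes did. For Txndc12 it was 0.02 and for Fkbp7 -0.03, and 97.2% and 95.2% of tested genes differed at least as much by replicate 2. Txndc5, P4hb, Pdia6 and Fkbp10 lay between -0.36 and -0.29, and Pdia3 was at -0.03. In 5 of the 10 genes this difference was larger in size than the siPkm2 over siNC log2 fold change, a share near the 54.8% of all tested genes. The lower chondrocyte markers and the higher interferon-stimulated genes of replicate 2 given above moved with it, and their part in it was not tested.

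**Figure D3:**
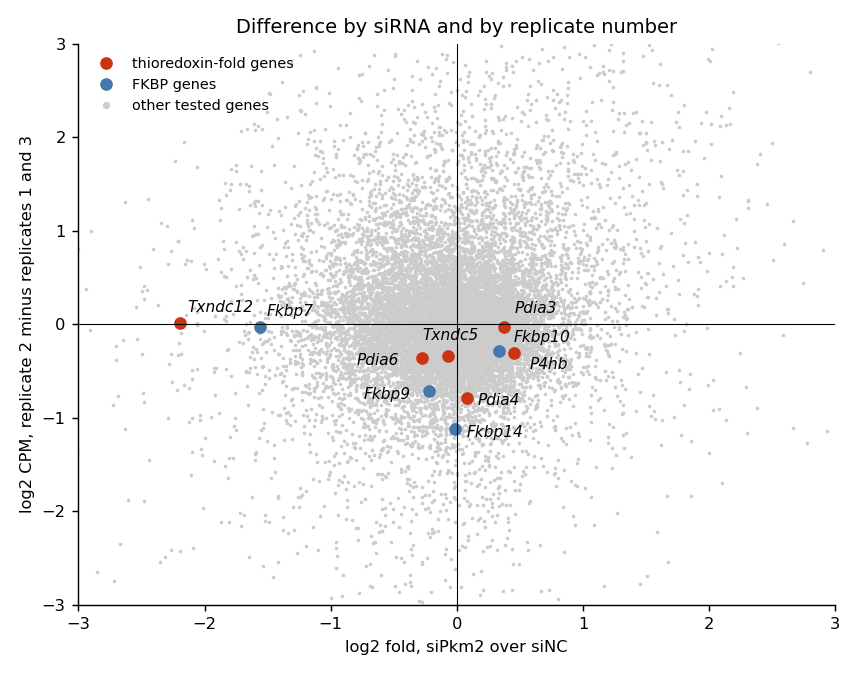
Log2 fold change of siPkm2 over siNC (horizontal) against the log2 CPM difference of replicate 2 from replicates 1 and 3 (vertical) for the tested genes, in grey, with the disulfide isomerase family in red and the FKBP genes in blue; 282 genes lie outside the plotted range. Txndc12 and Fkbp7 sit far left at almost 0 on the vertical axis, while Fkbp14, Pdia4 and Fkbp9 sit low and near 0 on the horizontal axis.

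Over the 6 libraries, the profiles of the 10 genes fell near each other or far apart as measured by the root mean square difference of centred log2 CPM. P4hb was nearest to Fkbp10 (0.14) and almost as near to Pdia3 (0.14). Txndc5 and Pdia6 were 0.17 apart, and Pdia4 lay at 0.22 from Fkbp9 and 0.24 from Fkbp14. Among the 10, Txndc12 was nearest to Fkbp7, at 0.36, and at least 0.97 from every other member. Genes outside the 10 lay nearer to each of them. Sorcs2 was at 0.18 from Txndc12 and Shank1 at 0.10 from Fkbp7, with log2 fold changes of -2.06 and -1.6. The 5 tested genes nearest to the mean profile of the 10 were Atad2b, Ppp3cb, Gmppa, Zbtb25 and Pyroxd1, at 0.037 to 0.049, and they had log2 fold changes between -0.39 and -0.28. The 10 genes themselves lay farther from that mean, from 0.095 for Pdia6 to 0.97 for Txndc12. The libraries share the group and replicate differences described above, which these distances contain.

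Other genes of the pathway were followed in 7 lists, which held 72 tested genes. In edgeR's quasi-likelihood test without a block, none of the 72 had an adjusted p under 0.05. Before adjustment, 17 of the 72 passed 0.05, against 17.6% of all tested genes. DESeq2's Wald test passed 3 lower and 3 higher, against 2.88% and 2.5% of the genes it tested. With the block, 12 were lower and 13 higher at an adjusted p under 0.05, or 16.7% and 18.1%, against 10.8% and 12.3% of all tested genes. The values below are log2 fold changes without the block and adjusted p-values of edgeR's test with it. Among the other ER proteins with a thioredoxin fold, 2 of 11 were lower and 4 higher. Tmx3, a membrane-bound isomerase, was at 29.1 ± 3.54 TPM (SD, n = 3) in siNC and 49.6 ± 2.21 TPM (SD, n = 3) in siPkm2, a log2 fold change of 0.93 (adjusted p = 0.0109 with the block). Tmx4, of the same membrane-bound family, went the other way, from 13.7 ± 0.48 TPM (SD, n = 3) to 8.67 ± 1.20 TPM (SD, n = 3), a log2 fold change of -0.62 (adjusted p = 0.0175 with the block). Dnajc10, an ER reductase that prepares proteins for degradation, had a log2 fold change of 0.57 (adjusted p = 0.0285 with the block), and Txndc16 one of -0.47 (adjusted p = 0.0406 with the block).

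The enzymes that reoxidise the isomerases had 1 of 9 lower and none higher with the block. That gene was Gpx7, an ER peroxidase that feeds oxidation into disulfide isomerases, at 78.7 ± 17.2 TPM (SD, n = 3) in siNC and 44.8 ± 8.35 TPM (SD, n = 3) in siPkm2, for a log2 fold change of -0.70 (adjusted p = 0.0128 with the block). Qsox1, a sulfhydryl oxidase, and Vkorc1, the vitamin K reductase, had the highest TPM of this list and log2 fold changes of 0.22 and -0.37, and did not pass (adjusted p = 0.143 and 0.0648 with the block). Of the other ER prolyl isomerases, 1 of 4 was lower. Fkbp2 was at 102 ± 8.81 TPM (SD, n = 3) and 73.5 ± 2.26 TPM (SD, n = 3), a log2 fold change of -0.47 (adjusted p = 0.043 with the block), while the cyclophilins Ppib and Ppic were at -0.08 and -0.01 and did not pass. Of 9 FKBP genes outside the ER lumen, 1 was lower. This was Fkbp3, a nuclear FKBP, at 109 ± 24.9 TPM (SD, n = 3) in siNC and 41.0 ± 6.49 TPM (SD, n = 3) in siPkm2, for a log2 fold change of -1.11 (adjusted p = 0.00942 with the block). Fkbp8 and Fkbp1a, the most abundant of that list, had log2 fold changes of 0.15 and 0.20 and did not pass.

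Of 14 thioredoxin-fold genes of the cytosol, nucleus and mitochondria, 2 were lower and 3 higher with the block. Txndc9 had a log2 fold change of -0.76 and Glrx5, a mitochondrial glutaredoxin of iron-sulfur cluster assembly, one of 0.75 (adjusted p = 0.0119 for both with the block). Glrx was at -0.45 and Glrx3 at 0.44 (adjusted p = 0.0399 and 0.047 with the block). Of 18 ER chaperones and lectins, 3 were lower and 4 higher. Hspa5, the main ER chaperone of the Hsp70 family, had a log2 fold change of 0.46 (adjusted p = 0.0437 with the block) and Sdf2l1, part of the same chaperone system, one of 0.52 (adjusted p = 0.0183 with the block). Dnajb9, a co-chaperone of Hspa5, was at -0.53 and Sil1, its nucleotide exchange factor, at -0.47 (adjusted p = 0.0173 and 0.017 with the block).

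Of 7 genes whose proteins bind or work with members, 2 were lower and 2 higher with the block. Plod2, the lysyl hydroxylase that works with the Fkbp10 protein on collagen, was at 279 ± 24.8 TPM (SD, n = 3) in siNC and 468 ± 16.2 TPM (SD, n = 3) in siPkm2, a log2 fold change of 0.80 (adjusted p = 0.0122 with the block). P4ha2, a catalytic subunit that pairs with P4hb in prolyl 4-hydroxylase, was at 418 ± 32.5 TPM (SD, n = 3) and 299.8 ± 50.6 TPM (SD, n = 3), a log2 fold change of -0.45 (adjusted p = 0.0315 with the block). Mttp, the lipid transfer protein that also needs P4hb as its partner, was low throughout, at 4.77 ± 1.06 TPM (SD, n = 3) and 2.46 ± 0.336 TPM (SD, n = 3), for a log2 fold change of -0.84 (adjusted p = 0.0193 with the block). Tapbp, the partner of Pdia3 in MHC class I loading, had a log2 fold change of 0.72 without and 1.12 with the block (adjusted p = 0.035 with the block), and it was 2.18 higher in log2 CPM in replicate 2. Of the 8 interferon-stimulated genes, 2 passed as higher with the block and none without it, namely Bst2 at a log2 fold change of 2.02 without and 3.38 with the block and Ifit1 at 1.98 without and 3.91 with it (adjusted p = 0.0291 and 0.0445 with the block). The other 6 had log2 fold changes between 0.93 and 1.80 and did not pass, and the part of these genes in the Tapbp value was not tested.

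**Figure D4:**
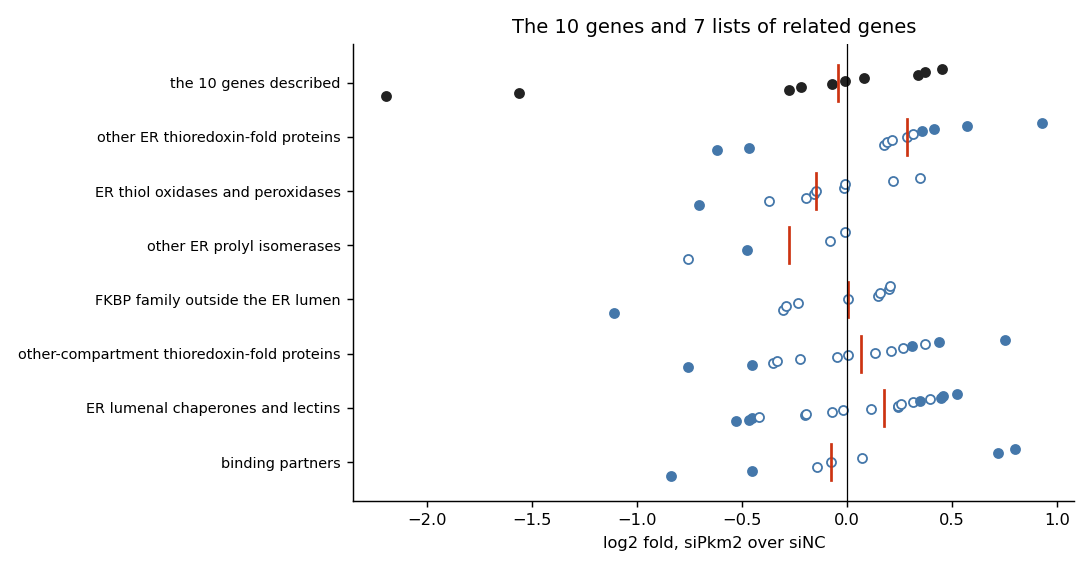
Log2 fold change of siPkm2 over siNC for the 10 genes (black) and the tested genes of 7 related lists (blue), 1 circle per gene, with a red bar at each median. Blue circles are filled where the adjusted p with the replicate block was under 0.05; no gene of the 7 lists lies as low as Txndc12 or Fkbp7, and the lowest is Fkbp3 at -1.11.

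Among the 90 tested genes annotated to the ER lumen, a group taken after the values were seen, Txndc12 had the lowest log2 fold change and Fkbp7 the third lowest. Between them lay Pcsk2, a prohormone convertase, at -2.16 (adjusted p = 0.0269 with the block in edgeR's test). The median of the 90 genes was 0.07, and 43 were below 0. Over a fold of 2 with the block, 3 of the 90 passed as lower (3.18% of all tested genes) and 2 as higher (2.65%). The 2 higher genes were Sumf1, which activates sulfatases, at 1.33 and Tor3a at 1.03. At any fold with the block, 13 were lower and 16 higher, against 10.8% and 12.3% of all tested genes.

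The promoters of the disulfide isomerase genes are shown because genes of ER folding are known to share the ER stress response element (ERSE), which reads CCAAT, 9 free bases and CCACG and is bound by NF-Y and ATF6. It was searched on both strands of RefSeq promoter windows on GRCm38.p6, from 250 bases before to 50 bases after a start, which were given for 9 of the 10 genes. The exact element was present in 1 of the 9, Pdia6, at chr12:17266491-17266509, and in 0.189% of the 11108 tested genes with a window, or 0.119% of all 32851 windows. With 1 mismatch allowed in CCACG it was also present in Pdia3 (chr2:121413873-121413891) and Pdia4 (chr6:47813602-47813620, on the strand opposite to the gene), against 1.59% of tested genes with a window and 0.998% of all windows. Capitals mark the positions fixed in the element, and the last base of Pdia3 and Pdia4 is the mismatch.
Pdia6: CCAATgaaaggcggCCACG
Pdia3: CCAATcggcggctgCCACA
Pdia4: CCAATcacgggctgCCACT
The 3 genes had log2 fold changes of -0.28, 0.37 and 0.08, which have both signs. The shorter ERSE-II, which reads ATTGG, 1 free base and CCACG, was in none of the 9, in 0.09% of tested genes with a window and in 0.0365% of all windows. Apart from these 3 genes, none with a window held either element in these letters.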

How the data were processed

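The 10 genes and the related lists were chosen with earlier results of these data known. The authors deposited estimated counts per gene, not normalized and partly fractional, and TPM values per library with group means. The deposited table also holds the authors' fold change (a ratio), log2 fold change, p-value and adjusted p-value, which were not used. Per the labels, the processing notes name edgeR and mm9, with no roles. The aligner and counter are not given in the sources used here. The table holds no coordinates. GENCODE M21 on GRCm38 contained 94% of its identifiers, and 99% of these had the length of one of their transcripts there, so positions are given on GRCm38 and none was converted.

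Counts were rounded, filtered by filterByExpr (15269 genes), scaled by TMM and tested by edgeR 4.0.16's quasi-likelihood test in R 4.3.3 with Benjamini-Hochberg adjustment. The same numbers pair the libraries: deviations of same-numbered libraries from their group means correlated at 0.644, 0.741 and 0.621 across genes. No 2 libraries of a group were duplicates, since 52.6% to 73.4% of genes differed beyond sampling noise. The alternatives were DESeq2 1.42.0, library scaling by RLE or upper quartiles, other filters, log2(TPM + 1) and log2(TPM + 0.1) values, leaving out each library, and the replicate block. Genes of the lists were named by a rule: those with an adjusted p under 0.05 with or without the block, the 4 largest fold changes where more passed, and the 2 with the highest TPM too where fewer than 2 passed, and the 5 genes nearest to the mean profile of the 10. Protein sequences were not analysed here. The depth leaves every gene of the 10 at 306 or more counts per library. The scripts were tested on simulated data.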

Additional observations from a re-analysis of the deposited data

How the results depend on the processing

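Of 150 recomputed log2 fold changes, 15 alternatives for each of the 10 genes, 128 lay within 1 SD of the gene's pair differences, and 18 of the other 22 came from leaving out a library. Txndc12 stayed between -2.28 and -2.09 and Fkbp7 between -1.70 and -1.51, while P4hb, Pdia3 and Fkbp10 stayed above 0 and Pdia6 and Fkbp9 below it in all of them. Fkbp9, however, ran from -0.424 without siNC replicate 2 to -0.0174 without siPkm2 replicate 2 and moved by over 1 SD in 9 of them, and Pdia6 ran from -0.417 without siPkm2 replicate 1 to -0.133 without siPkm2 replicate 2. The SD is each gene's own, and the pair differences of Fkbp9 were -0.21, -0.21 and -0.24, so small shifts pass it. Pdia4, with pair differences of -0.11, 0.47 and 0.04, moved by over 1 SD in 0 of the alternatives. Fkbp10 was lowest, at 0.219, without siNC replicate 2. Txndc5, Pdia4 and Fkbp14 changed sign in 2, 3 and 5 of them, and Fkbp14 ran from -0.314 without siNC replicate 2 to 0.359 without siNC replicate 3. The median of the 10 genes ran from -0.254 without siNC replicate 2 to 0.128 without siPkm2 replicate 2 when libraries were left out, and the cause was not tested.

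The number of genes at a fold over 2 and an adjusted p under 0.05 was 0, and it was 890 with the replicate block, 430 with DESeq2, 9 without a filter, 3 with upper-quartile factors and 3 with at least 10 counts in every library. With each library left out it ran from 0 to 105, the latter without siNC replicate 2, and without both libraries of replicate 2, an alternative added after seeing the data, it was 507. At any fold the counts were 3524 with the replicate block, 829 with DESeq2, 699 without replicate 2, 9 without a filter, 3 with upper-quartile factors, 3 with the stricter filter and 0 to 105 with each library left out. In the 7 related lists, none passed in the fit without a block; 12 were lower and 13 higher with the replicate block, 3 and 3 with DESeq2, and 0 and 3 without replicate 2. With each library left out, 0 were lower and 0 to 1 higher. The ERSE was in 1 of the 9 promoters, in 3 with 1 mismatch, and ERSE-II, added later, in 0. The rule was met by 2 of the 10 genes with the replicate block (890 of all genes), with DESeq2 (430) and without a filter (9). It was also met by 2 without siNC replicate 2 (105) and without both libraries of replicate 2 (507). With the stricter filter (3) and with upper-quartile factors (3), 1 gene met it. The genes were chosen with this comparison known, so nothing is read from these counts. All 10 genes had at least 306 counts in every library.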
